A study of Schizosaccharomyces pombe with 6 samples.

Results

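The mating-type region of Schizosaccharomyces pombe, fission yeast, was taken as the 100 kb of chromosome II from 2080001 to 2180000, and every array probe with its midpoint inside was a member. These were 314 of the 42707 probes on the array. The region is a place on the map and was not chosen by signal. Binding of RPA, the complex that coats single-stranded DNA, was measured by precipitating its large subunit Ssb1 and hybridising the precipitate (IP) against its own input on 2-colour arrays. The first group was cdc25-22 rad3∆ (3 arrays, called rad3∆ here), and the second was cdc25-22 with rad3 intact (3 arrays, named WT in the titles and here, although it carries the cdc25-22 mutation). Both strains were grown at 25 °C, held for 4 h at 36.5 °C, returned to 25 °C and given 6 mM HU (hydroxyurea). The input channel of rad3∆ array 3 was labelled cdc25-23. All titles carry the number 60, with no unit stated. The molecule is labelled as total RNA, with a protocol for RNA. Reading both channels as DNA is an assumption behind every value below. Neither the mating type of the strains nor whether the 3 arrays of a strain were separate cultures is stated, so p-values measure only the spread between these arrays.

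The mat1 cassette of fission yeast is the one that is expressed, and its content decides whether the cell is P or M. Cells switch type by copying a silent cassette, such as mat3, into mat1. Switching starts from an imprint laid down in mat1 when it is replicated in one direction only, and the polar terminator RTS1, on the centromere side of mat1, stops forks that would come the other way. The silent cassettes lie in heterochromatin bounded by the inverted repeats IR-L and IR-R. HU starves forks of deoxyribonucleotides, and stalled forks expose single-stranded DNA that RPA covers. Rad3 is the ATR-family kinase of the checkpoint that answers this. The cdc25-22 allele, temperature-sensitive in the phosphatase that drives mitotic entry, serves to synchronise cells.

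The reference genome (ASM294v3, of a strain in the h- arrangement) holds mat1 and mat3 as near-identical copies, and this set the limits of what could be measured. An alignment of the region with itself matched 1333 bases at mat1 (2114100 to 2115432) to 1334 bases at mat3 (2132467 to 2133800) with 99.85% identity. It also matched IR-L (2129230 to 2131311) to IR-R (2135018 to 2137098), inverted, with 99.856% identity over 2082 bases. None of the 314 probes lay wholly in any of these 4 copies (0 probes in each), and 0 probes held a stretch of 25 bases that occurs elsewhere in the genome. The 4 annotated mating-type genes therefore have no measurement. They are mat1-Mi (SPBC23G7.17C, 2114219 to 2114347, minus strand), mat1-Mc (SPBC23G7.09, 2114482 to 2115027, plus strand), mat3-Mi (SPBC1711.01C, 2132586 to 2132714, minus strand) and mat3-Mc (SPBC1711.02, 2132849 to 2133394, plus strand). The Mc gene encodes a transcription factor of M cells, and Mi encodes a small protein needed for meiosis. The mat2 cassette and the K region of other arrangements were not analysed here. The left borders of both cassette copies show where single-copy sequence, in lower case, gives way to the shared sequence, in capitals (plus strand, 5′ to 3′, chrII:2114040-2114159 and chrII:2132407-2132526, ASM294v3).
mat1 left border: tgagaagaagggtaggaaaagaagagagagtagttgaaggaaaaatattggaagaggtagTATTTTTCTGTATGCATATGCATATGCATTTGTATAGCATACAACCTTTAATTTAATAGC
mat3 left border: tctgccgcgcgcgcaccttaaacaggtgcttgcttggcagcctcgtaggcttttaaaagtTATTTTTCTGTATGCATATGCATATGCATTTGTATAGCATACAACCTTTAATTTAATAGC

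Left of mat1, 3 short repeats lay between 2113352 and 2113605, 494 bases from the copy, where RTS1 is described. They are printed because the RPA signal beside them is reported below. The stretch common to all 3, CATACCCTTTC, is in capitals (chrII:2113352-2113409, chrII:2113472-2113534 and chrII:2113542-2113605, ASM294v3, plus strand). Searched on both strands, it occurred 12 times in the nuclear genome, in 10 of 12570 windows of 1 kb (0.0796%), and 3 of the 12 matches were these.
RTS1-side repeat 1: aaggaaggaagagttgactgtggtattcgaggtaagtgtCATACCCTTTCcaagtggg
RTS1-side repeat 2: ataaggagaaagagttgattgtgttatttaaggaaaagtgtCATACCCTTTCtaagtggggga
RTS1-side repeat 3: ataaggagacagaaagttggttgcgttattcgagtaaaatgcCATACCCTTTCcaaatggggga

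Between mat3 and IR-R, the letters TGACGT, the core that the stress factors Atf1 and Pcr1 of fission yeast bind beside mat3, occurred once, with both strands searched. The match is in capitals (chrII:2134182-2134307, ASM294v3, plus strand, so that it reads as the reverse complement) and began 442 bases right of the mat3 copy. The same letters, searched on both strands, were in 13 of the region's 100 windows of 1 kb (13.0%) and in 15.2% of all 12570 windows, so that their presence is common.
mat3 to IR-R: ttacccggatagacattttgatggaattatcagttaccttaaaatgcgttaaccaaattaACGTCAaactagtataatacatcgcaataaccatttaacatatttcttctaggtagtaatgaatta

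Values are given as log2(IP/input) centred on each array's median nuclear probe, so that 0 stands for an ordinary probe and says nothing of whether RPA was there. As a check of the labels, 24 of the 32 probes of the deleted rad3 gene failed the background test in every rad3∆ input, and those 24 passed it in every WT input. In IP, rad3∆ array 2 was dim, with a median background-subtracted intensity of 41.4, against 634.7 and 1143.2 on the other rad3∆ arrays and 241.0 to 786.7 in WT. It had 249 of the 314 probes of the region (79.3%) well above background in the IP channel, against 301 to 311 on the other arrays. Of the 314 probes, 3 were left out for an outlier flag, and 0 were saturated. The other 311 gave 91 of the 100 windows of 1 kb at least 2 probes. Values are mean ± SD over 3 arrays unless they are called fitted. The fits of limma weigh both dye orientations equally, and they adjust p-values over all 12040 windows or 8199 genes of the genome.

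RPA was highest around the silent mat3 cassette and just right of IR-R, and lowest in the 15 kb left of mat1, in both strains. The window beside the left edge of mat3 (2132001 to 2133000) reached 1.23 ± 0.44 in rad3∆ and 1.39 ± 0.28 in WT. Its input was low, at a fitted -0.81 in rad3∆ and -0.91 in WT. The lowest window (2109001 to 2110000) read -1.19 ± 0.40 in rad3∆ and -0.91 ± 0.29 in WT. Enriched windows are those with a fitted value of 0.5 or more (1.41-fold over the array median) and an adjusted p under 0.05, and depleted ones those at -0.5 or less with the same p. With limma, 12 of the 91 windows were enriched in rad3∆, where 18.8% of all windows were, and 9 in WT, where 18.4% were. Depleted windows numbered 17 in rad3∆ (21.3% of all windows) and 10 in WT (20.9% of all). The shares among the measured windows of the region were below those of the genome in all 4 counts, most narrowly for depleted windows in rad3∆. Windows with too few probes include some in IR-L, mat3 and IR-R, next to the highest windows. Whether those would be enriched was not measured, so the enriched shares leave them out. No test was made of the shares. The 2 strains shared 9 enriched windows (14.8% of all windows were enriched in both) and 9 depleted ones (16.5% of all).

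**Figure D1:**
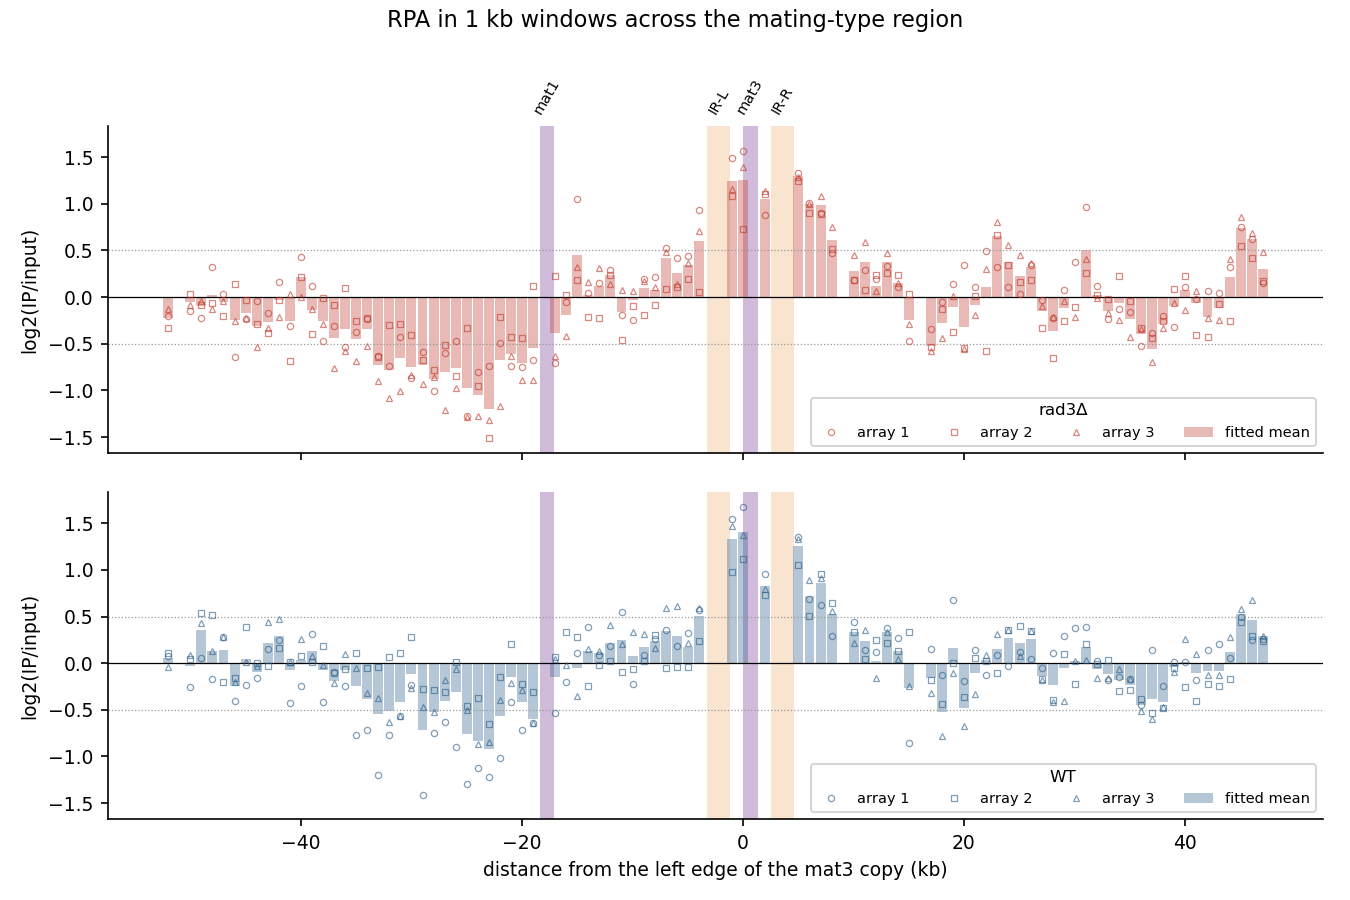
log2(IP/input) in 1 kb windows, rad3∆ above and WT below, against the distance in kb from the left edge of the mat3 copy. Bars are fitted means, symbols are the 3 arrays, dotted lines mark 0.5 and -0.5, and shaded spans are the repeat copies, which hold no whole probe; fitted means in the 15 kb left of mat1 lie below 0, and those between IR-L and mat3 above 1, in both strains.

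The highest windows lay in the single-copy DNA between the inverted repeats and just right of IR-R. The window of 2131001 to 2132000, next to IR-L, read 1.49, 1.09 and 1.16 on rad3∆ arrays 1, 2 and 3, and 1.54, 0.97 and 1.47 on the WT arrays. All 6 arrays were high, the lowest being WT array 2, and the strains overlapped. The next window, 2132001 to 2133000, read 1.57, 0.73 and 1.40 in rad3∆ and 1.67, 1.11 and 1.38 in WT. Its 2 probes lie left of the mat3 copy, between the IR-L copy and the border printed above, so the value describes the flank and not mat3-Mi or mat3-Mc. Fitted input there was -0.81 in rad3∆ and -0.91 in WT, against 0.07 and 0.06 at 2131001 to 2132000. Right of mat3, the window of 2134001 to 2135000 read 0.88, 1.11 and 1.14 in rad3∆ and 0.95, 0.73 and 0.79 in WT. Over all windows of the genome, 0.357% stood higher than the fitted value at 2132001 to 2133000 in rad3∆ (1.25) and 0.116% stood higher in WT (1.41).

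Single probes show the shape more finely. The 5 probes from the inner edge of IR-L to mat3 averaged 0.94, 1.21, 1.58, 1.1 and 1.36 from left to right in rad3∆, and 1.12, 1.32, 1.53, 1.24 and 1.53 in WT. The probe with 1.58 in rad3∆ (2131891 to 2131950) had an input of -1.15 in rad3∆ and -1.14 in WT. The 3 probes between mat3 and IR-R averaged 0.76, 0.86 and 1.51 in rad3∆ and 0.37, 0.97 and 1.13 in WT. The last of these (2134779 to 2134832) is not well above background on every array and its input was far below the array median, at -2.80 in rad3∆ and -2.64 in WT. The probe 2134171 to 2134230, just left of the TGACGT match, was the lowest of the 8, with an input of 1.61 in rad3∆ and 1.63 in WT. Over the 8 probes, the mean was 1.16 ± 0.14 in rad3∆ and 1.15 ± 0.22 in WT, with input at -0.24 ± 0.36 in rad3∆ and -0.25 ± 0.26 in WT. The whole stretch they lie in, the mat3 copy included, is 70.3% A+T, against 63.4% to 66.0% in the other stretches into which the region was divided after the profile was seen. The 500 bases around each of the 8 probes are 67.7% to 75.2% A+T. Across the 311 probes the ratio followed the A+T share of the surrounding 500 bases weakly (Pearson's r = 0.146 in rad3∆ and 0.154 in WT, a description over neighbouring probes that are not independent). Over the region, the 218 probes in protein-coding genes averaged -0.137 in rad3∆ and -0.0555 in WT, and the 93 between such genes 0.125 and 0.166. The parts of base composition and of gene content in the result were not tested.

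**Figure D2:**
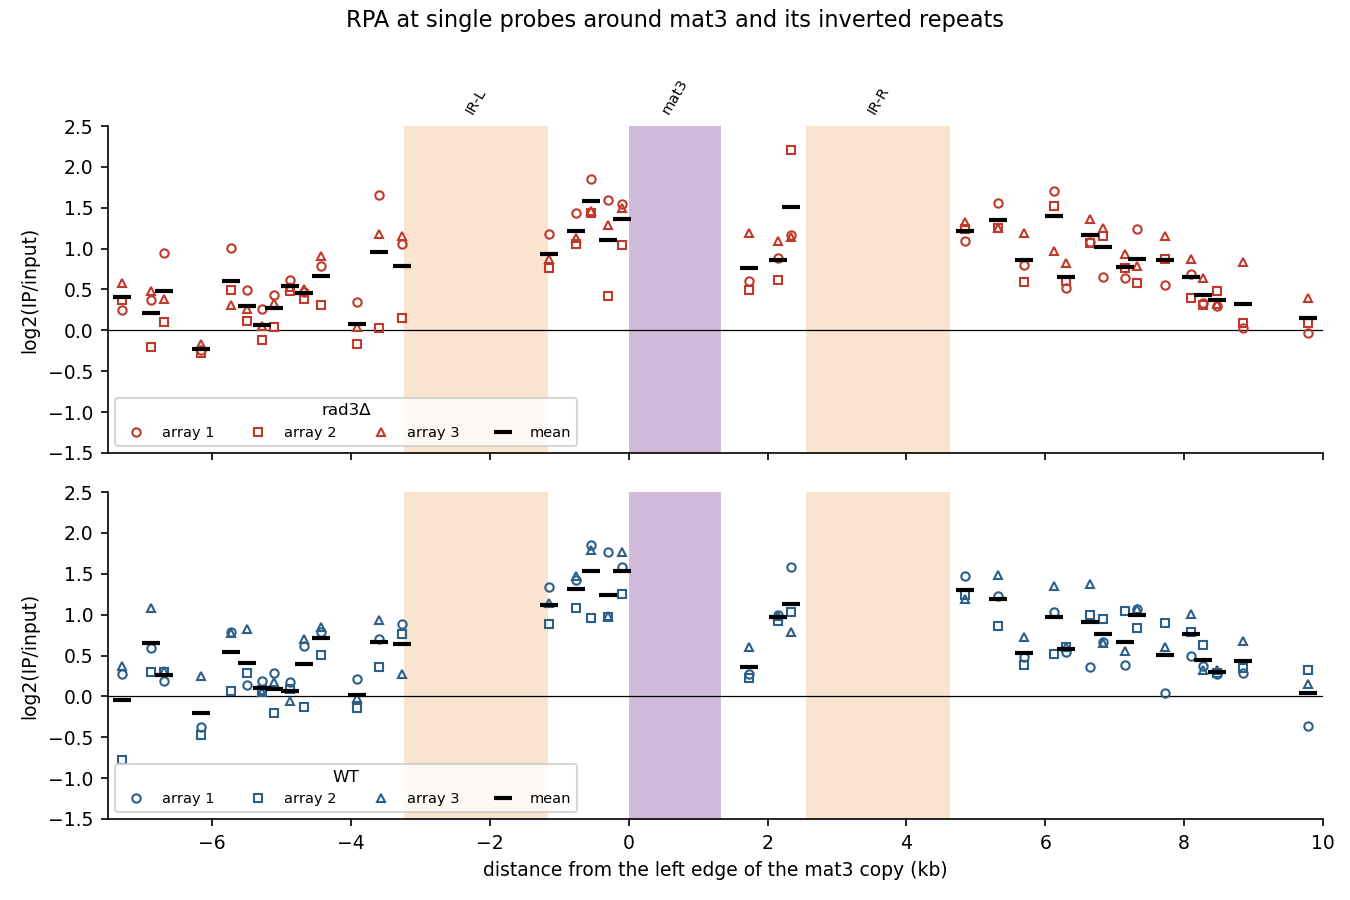
log2(IP/input) at single probes against the distance in kb from the left edge of the mat3 copy, rad3∆ above and WT below; symbols are arrays and black bars their means. Probe means between the repeats lie from 0.37 to 1.58, and the 14 probes in the 5 kb right of IR-R average 0.85 in rad3∆ and 0.74 in WT.

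Outside the repeats, the high stretch continued to the right further than to the left. Right of IR-R, the window of 2137001 to 2138000 read 1.33, 1.24 and 1.29 in rad3∆ and 1.35, 1.05 and 1.34 in WT. All 6 arrays were again high. The next 3 windows, over emc3 and mtd1, were all below it in both strains. They read 0.97 ± 0.06 (2138001 to 2139000), 0.96 ± 0.11 (2139001 to 2140000) and 0.58 ± 0.15 (2140001 to 2141000) in rad3∆, and 0.69 ± 0.19, 0.83 ± 0.18 and 0.50 ± 0.19 in WT. The 14 probes in the 5 kb right of IR-R averaged 0.85 ± 0.11 in rad3∆ and 0.74 ± 0.12 in WT, with input at 0.03 ± 0.11 in rad3∆ and 0.04 ± 0.07 in WT. From 2142001 to 2147000, the highest window mean was 0.36 in rad3∆ and 0.33 in WT. Left of IR-L, 1 window was enriched, 2128001 to 2129000, with 0.57 ± 0.46 in rad3∆ and 0.47 ± 0.19 in WT. Its rad3∆ arrays were spread, at 0.93, 0.05 and 0.71.

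Joined into runs, enriched windows gave the stretches 2131001 to 2135000 and 2137001 to 2141000 in both strains, each 4 kb long, and in rad3∆ also 2177001 to 2179000. The run with the higher window held the 29th highest summit of 335 runs in rad3∆ (1.30, fitted) at 2137001 to 2138000. In WT the summit between the repeats (1.41, fitted) was 13th highest of 294. Of all enriched runs, 222 of the 335 in rad3∆ and 206 of the 294 in WT were 4 kb or longer. IR-R separates the runs and has no probes, so whether they are one stretch was not measured. Leaving out any 1 array, or taking any of the other 7 settings fitted on 1 kb windows, left the 5 highest windows enriched with an adjusted p of 0.0108 or less.

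At mat1 the picture was the reverse. The 15 kb to its left held RPA below the array median throughout in rad3∆, as 1 run of 15 depleted windows (2099001 to 2114000). In WT the calls broke into runs of 2, 2 and 4 windows and a lone window next to mat1, so that 9 of the same 15 windows were depleted. Of the 215 depleted runs of the genome in rad3∆, 63 were as long or longer, this one included. The 52 probes there averaged -0.71, -0.56 and -1.0 on rad3∆ arrays 1, 2 and 3, and -0.79, -0.17 and -0.47 on WT arrays 1, 2 and 3. WT array 2 was the least depleted and rad3∆ array 3 the most, and the strains overlapped. Input over the same probes averaged -0.14 ± 0.08 in rad3∆ and -0.07 ± 0.06 in WT, and IP -0.90 ± 0.17 in rad3∆ and -0.56 ± 0.28 in WT. Single windows departed from this mean, and some of the lowest had input above the array median, as given below. Of the 52 probes, 27 were well above background in both channels on all 6 arrays, where 77.1% of all 314 probes of the region were.

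The lowest windows by the mean of both strains were neighbours. The window of 2107001 to 2108000 read -0.96 ± 0.55 in rad3∆ and -0.75 ± 0.47 in WT. The window of 2108001 to 2109000 read -1.01 ± 0.24 in rad3∆ and -0.79 ± 0.38 in WT. Next to it, the lowest one read -0.74, -1.51 and -1.32 on rad3∆ arrays and -1.22, -0.65 and -0.85 on WT arrays. Of all windows, 2.14% were lower than this in rad3∆ and 6.01% in WT. The other 2 of the 5 lowest were 2103001 to 2104000 (-0.73 ± 0.18 in rad3∆ and -0.72 ± 0.61 in WT) and 2104001 to 2105000 (-0.88 ± 0.11 in rad3∆ and -0.52 ± 0.23 in WT). Fitted input was above the array median at 2107001 to 2108000 (0.51 in rad3∆ and 0.53 in WT), 2108001 to 2109000 (0.22 and 0.27) and 2109001 to 2110000 (0.52 and 0.65). It was -0.001 and 0.02 at 2103001 to 2104000, and -0.51 and -0.32 at 2104001 to 2105000. The part of input in these ratios was not tested. The counts moved with single arrays. Without rad3∆ array 3, 4 windows of the region were depleted in rad3∆ in place of 17 (14.4% of all windows in place of 21.3%), and without WT array 1, 5 were depleted in WT in place of 10 (19.7% of all in place of 20.9%). Array 3 was the only rad3∆ array with swapped dyes. Without it the dye term came from the WT arrays alone, so the drop in rad3∆ also carries the dye difference of WT. The windows 2108001 to 2109000 and 2109001 to 2110000 kept an adjusted p of 0.0148 or less in both strains under all 13 alternatives, with fitted values of -0.621 or lower. With only the probes well above background on all arrays, which left 79 windows, the counts were 11 in rad3∆ (16.5% of all windows) and 6 in WT (17.5% of all).

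The stretches to either side of mat1 differed in mean signal, while the windows next to it lay closer to each other. The window that holds the 3 printed repeats, 2113001 to 2114000, read -0.67, 0.12 and -0.89 in rad3∆ and -0.64, -0.31 and -0.65 in WT. The probe 2113539 to 2113598, which covers most of repeat 3, was low on every array, at -0.81, -0.91 and -0.70 in rad3∆ and -1.12, -0.60 and -0.79 in WT. Its input was high, at 2.10 in rad3∆ and 2.18 in WT. The probe closest to the left border of mat1 (2114026 to 2114085) gave ratios that scattered between -0.64 and 2.11 over the arrays of both strains. Its input was at -2.82 in rad3∆ and -2.69 in WT and it was not well above background on every array. Right of mat1, the window of 2115001 to 2116000 read -0.37 ± 0.51 in rad3∆ and -0.14 ± 0.34 in WT, and 2116001 to 2117000 read -0.15 ± 0.24 in rad3∆ and 0.04 ± 0.27 in WT. Neither was called in either strain. The window 2113001 to 2114000, left of mat1, averaged -0.48 ± 0.53 in rad3∆ and -0.53 ± 0.19 in WT, so the windows flanking mat1 were close in rad3∆. Over all 48 probes from mat1 to IR-L, the mean was 0.14 ± 0.14 in rad3∆ and 0.16 ± 0.09 in WT. Averaged over the stretches, the difference between both sides of mat1 was present on each array. The lowest stretch mean right of mat1 was -0.02 (rad3∆ array 2) and the highest left of it was -0.17 (WT array 2). These stretches were drawn after the profile was seen, and no test was made of them. Their means do not place the change at mat1 itself.

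The outer parts of the region lay close to the array median. The 63 probes left of 2099100 averaged -0.20 ± 0.07 in rad3∆ and 0.01 ± 0.14 in WT. The 126 probes right of 2142098 averaged 0.05 ± 0.07 in rad3∆ and 0.00 ± 0.06 in WT. On the far right, 2 neighbouring windows at rct1 were high in rad3∆. The window of 2177001 to 2178000 read 0.72 ± 0.16 in rad3∆ and 0.51 ± 0.07 in WT and was enriched in both. The next read 0.58 ± 0.14 in rad3∆ and 0.41 ± 0.24 in WT and was enriched in rad3∆. Windows 2155001 to 2156000 (0.60 ± 0.24 in rad3∆ and 0.10 ± 0.21 in WT) and 2163001 to 2164000 (0.54 ± 0.37 in rad3∆ and 0.21 ± 0.18 in WT) were enriched in rad3∆ and not called in WT. Windows 2149001 to 2150000 (-0.49 ± 0.13 in rad3∆ and -0.12 ± 0.24 in WT) and 2169001 to 2170000 (-0.50 ± 0.17 in rad3∆ and -0.33 ± 0.41 in WT) were depleted in rad3∆, and 2150001 to 2151000 (-0.21 ± 0.20 in rad3∆ and -0.45 ± 0.33 in WT) was depleted in WT. None of these 5 passed for a strain difference. At the limits of the region, the first windows inside and outside on the left read -0.22 and -0.01 in rad3∆ and 0.05 and 0.01 in WT, and those on the right read 0.27 and 0.21 in rad3∆ and 0.26 and 0.32 in WT.

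Genes followed the windows they lie in. Of 107 genes annotated in the region, 75 had at least 2 probes, 38 of them protein-coding, and 14 had 0 probes. Long non-coding RNA genes made up the other 37, and many share probes with a coding gene on the opposite strand, which DNA arrays do not tell apart. With limma, 9 genes were enriched in rad3∆ (18.2% of all genes) and 4 in WT (17.8% of all). Depleted genes numbered 13 in rad3∆ (20.6% of all) and 7 in WT (21.1% of all). Of the 38 protein-coding genes alone, 4 were enriched and 7 depleted in rad3∆ (16.2% and 21.4% of all coding genes), and 2 were enriched and 3 depleted in WT (16.4% and 21.2% of all coding genes).

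The genes right of IR-R were the highest. emc3 (SPBC1711.03, 2138319 to 2139748), which encodes a subunit of the membrane protein insertion complex of the endoplasmic reticulum, read 0.92, 1.02 and 1.07 in rad3∆ and 0.60, 0.82 and 0.91 in WT. Its lowest rad3∆ array was just above its highest WT array. The fitted difference was 0.23 ± 0.13 (SE; limma adjusted p = 0.69). mtd1 (SPBC1711.04, 2139791 to 2141050), a methylenetetrahydrofolate dehydrogenase gene of one-carbon metabolism, read 0.47, 0.52 and 0.75 in rad3∆ and 0.29, 0.65 and 0.56 in WT. Their adjusted p stayed under 0.05 in both strains under all 13 alternatives, with fitted values of at least 0.68 for emc3 and 0.41 for mtd1. The opposite-strand RNA genes SPNCRNA.1489 (1.07 ± 0.06 in rad3∆ and 0.82 ± 0.18 in WT) and SPNCRNA.5508 (0.64 ± 0.11 in rad3∆ and 0.60 ± 0.13 in WT) share probes with them and were called in both strains too.

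Values were lower beyond them. srp40, next to mtd1, read 0.28 ± 0.23 in rad3∆ and 0.36 ± 0.04 in WT. rpl401, a gene for a protein of the large ribosomal subunit, read 0.23 ± 0.11 in rad3∆ and 0.07 ± 0.07 in WT. Neither reached 0.5. On the left of IR-L, SPBC23G7.14 read 0.41 ± 0.17 in rad3∆ and 0.33 ± 0.20 in WT, and mag2, a homologue of DNA glycosylase genes, read 0.22 ± 0.08 in rad3∆ and 0.21 ± 0.19 in WT. Farther right, atg2402, which encodes a sorting nexin, read 0.07, 0.69 and 0.76 in rad3∆ and -0.05, 0.05 and 0.40 in WT, and was enriched in rad3∆. rct1 (SPBC17G9.05, 2177773 to 2179449), a nuclear cyclophilin gene, read 0.50 ± 0.13 in rad3∆ and 0.42 ± 0.14 in WT, and was enriched in rad3∆ (fitted values 0.53 in rad3∆ and 0.46 in WT). The remaining enriched genes, in rad3∆, were SPNCRNA.5515, opposite atg2402, and SPNCRNA.5525 and SPNCRNA.5526, just left of rct1.

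All depleted genes of both strains lay left of mat1, between 2098161 and 2113075. cms1 (SPBC23G7.07C, 2109254 to 2110396) was the lowest coding gene. It read -0.84, -1.12 and -1.33 in rad3∆ and -1.07, -0.62 and -0.72 in WT, and WT array 2 was the least low. nvj2 (SPBC23G7.06C, 2106331 to 2108978), named after a lipid-binding protein of nucleus-vacuole junctions in budding yeast, read -0.88, -0.80 and -1.25 in rad3∆ and -1.20, -0.28 and -0.59 in WT. ctr6 (SPBC23G7.16, 2100115 to 2101253), the vacuolar copper transporter gene, read -0.68, -0.29 and -1.09 in rad3∆ and -0.82, 0.02 and -0.71 in WT. These 3 were depleted in both strains, although ctr6 in WT array 2 was at the array median.

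A further 4 coding genes were depleted in rad3∆ and not called in WT, but none of them passed for a strain difference (limma adjusted p = 0.65 to 0.87). sui1, the gene for translation initiation factor eIF1, read -1.01 ± 0.46 in rad3∆ and -0.50 ± 0.68 in WT. mti3, a mitochondrial initiation factor gene, read -0.74 ± 0.32 in rad3∆ and -0.39 ± 0.67 in WT. nif1, which encodes an inhibitor of the mitotic kinase Nim1, read -0.74 ± 0.21 in rad3∆ and -0.35 ± 0.38 in WT. In WT it missed the threshold of -0.5 only, with a fitted -0.38 (limma adjusted p = 0.041). rga7 (SPBC23G7.08C, 2110485 to 2113075), a GTPase-activating protein gene and the coding gene next to mat1, read -0.51 ± 0.35 in rad3∆ and -0.30 ± 0.35 in WT. In WT, the limma adjusted p was under 0.05 in 3 of 12 alternatives for sui1 and for mti3. It was so in 6 of 13 for nif1 and 3 of 13 for rga7. Without rad3∆ array 3, none of the 4 kept an adjusted p under 0.05 in rad3∆ (limma adjusted p = 0.31, 0.36, 0.059 and 0.40), nor did nvj2 (0.051) or ctr6 (0.087). The fitted values in rad3∆ were then -0.405 for sui1, -0.414 for mti3, -0.657 for nif1, -0.276 for rga7, -0.762 for nvj2 and -0.639 for ctr6. Those of nif1, nvj2 and ctr6 thus stayed below -0.5. Depleted genes of the region then numbered 4 in rad3∆ in place of 13, and without WT array 1 they numbered 4 in WT in place of 7. Without rad3∆ array 3, the only rad3∆ array with swapped dyes, the dye term came from the WT arrays alone. The fitted values in rad3∆ are therefore not means of the arrays left. Arrays 1 and 2 of rad3∆ read -0.84 and -0.66 for sui1, and -0.68 and -0.29 for ctr6. The lowest coding gene elsewhere in the region, by the mean of both strains, was cdc73, a subunit gene of the Paf1 complex of transcription elongation, with -0.35 ± 0.02 in rad3∆ and -0.45 ± 0.12 in WT.

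**Figure D3:**
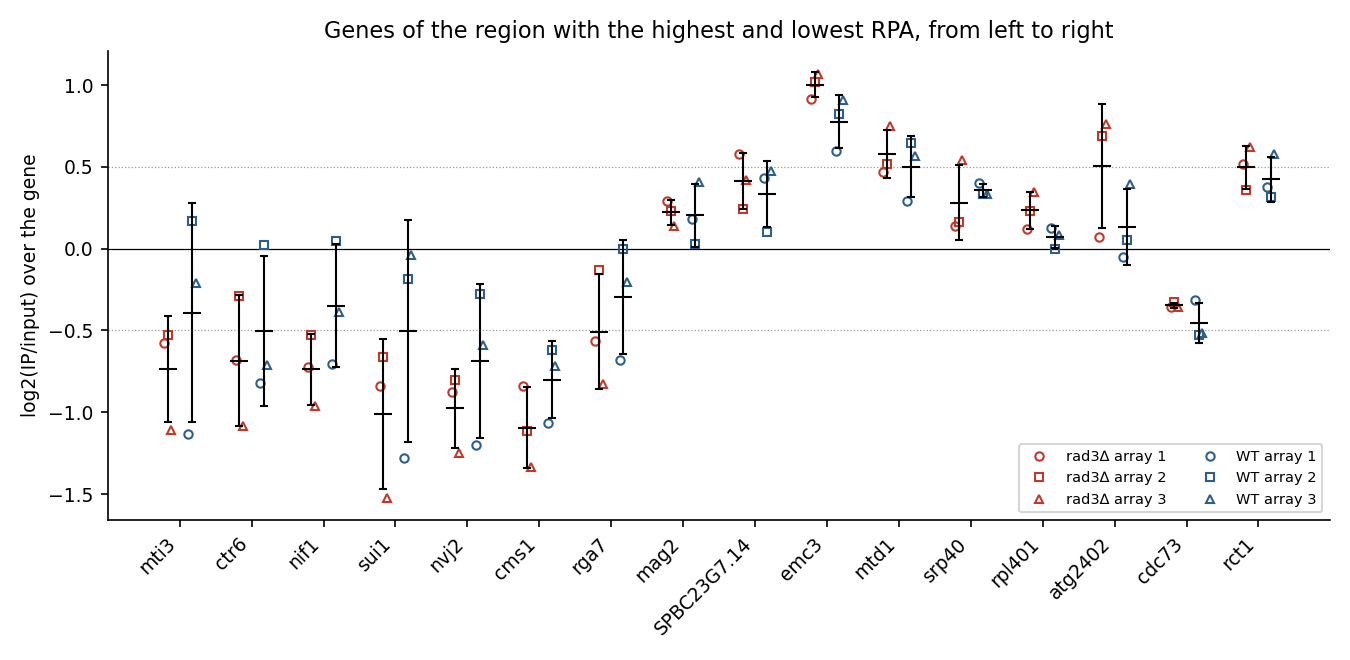
log2(IP/input) over the 8 lowest and 8 highest coding genes of the region, in their order along the chromosome, rad3∆ left of WT for each gene. Symbols are arrays, bars mean ± SD (n = 3), and dotted lines 0.5 and -0.5; 7 genes left of mat1 lie low and emc3 lies highest.

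No window and no gene of the region passed for a strain difference with limma (0 of 91 windows and 0 of 75 genes). In the whole genome 0.108% of windows were higher in rad3∆ and 0.0% lower, and no gene was called in either direction (0.0%). At an unadjusted p under 0.05, 2 windows of the region were higher in rad3∆ (5.12% of all windows) and 5 lower (3.01% of all), and 1 gene was higher (5.71% of all) and 1 lower (2.46% of all). The lowest adjusted p was 0.324 for windows and 0.549 for genes. All 3 rad3∆ arrays lay below all 3 WT arrays in 7 windows (4.67% of all windows) and above them in 2 (6.06% of all). Among genes this held for 2 below (4.09% of all genes) and 2 above (6.39% of all).

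The largest fitted difference was at 2102001 to 2103000, in nif1, which read -0.87, -0.41 and -0.84 in rad3∆ and -0.23, 0.28 and -0.27 in WT. The arrays of the strains did not overlap there. The fitted difference was -0.63 ± 0.19 (SE; limma adjusted p = 0.32). It was followed by 2089001 to 2090000 (-0.48 ± 0.16), 2083001 to 2084000 (-0.46 ± 0.17), 2111001 to 2112000 (-0.46 ± 0.19) and 2106001 to 2107000 (-0.45 ± 0.24), all left of mat1. The largest differences of the other sign were at 2117001 to 2118000 (0.50 ± 0.21), 2155001 to 2156000 (0.50 ± 0.16), 2163001 to 2164000 (0.34 ± 0.19), 2138001 to 2139000 (0.28 ± 0.15) and 2150001 to 2151000 (0.24 ± 0.15), all right of mat1. At 2117001 to 2118000 the arrays read 1.05, 0.18 and 0.32 in rad3∆ and 0.11, 0.28 and -0.35 in WT, and overlapped. Without both arrays of slide 2, an alternative chosen after the data were seen, this window alone of the region passed (0.805 ± 0.166, SE; limma adjusted p = 0.0175), where 2.28% of all windows did.

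Left of mat1, 29 of 33 windows had a negative fitted difference, with a median of -0.22. Right of mat1, 23 of 58 had one, with a median of 0.02. Of all windows of the genome 54.8% had a negative one, with a median of -0.02. Neighbouring windows are not independent, the split was made after the profile was seen, and no single window passed. Among genes, the largest negative differences were those of sui1 (-0.51 ± 0.34), nif1 (-0.39 ± 0.20), SPBC18E5.08 (-0.39 ± 0.16), SPNCRNA.5496 (-0.39 ± 0.17) and SPNCRNA.5492 (-0.38 ± 0.19). The largest positive ones were those of atg2402 (0.37 ± 0.17), SPNCRNA.5515 (0.35 ± 0.13), SPNCRNA.5520 (0.27 ± 0.19), SPNCRNA.1489 (0.25 ± 0.12) and SPNCRNA.5526 (0.25 ± 0.12). All are fitted values ± SE, and none passed. A negative difference was found in 47 of the 75 genes, and in 54.7% of all genes.

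**Figure D4:**
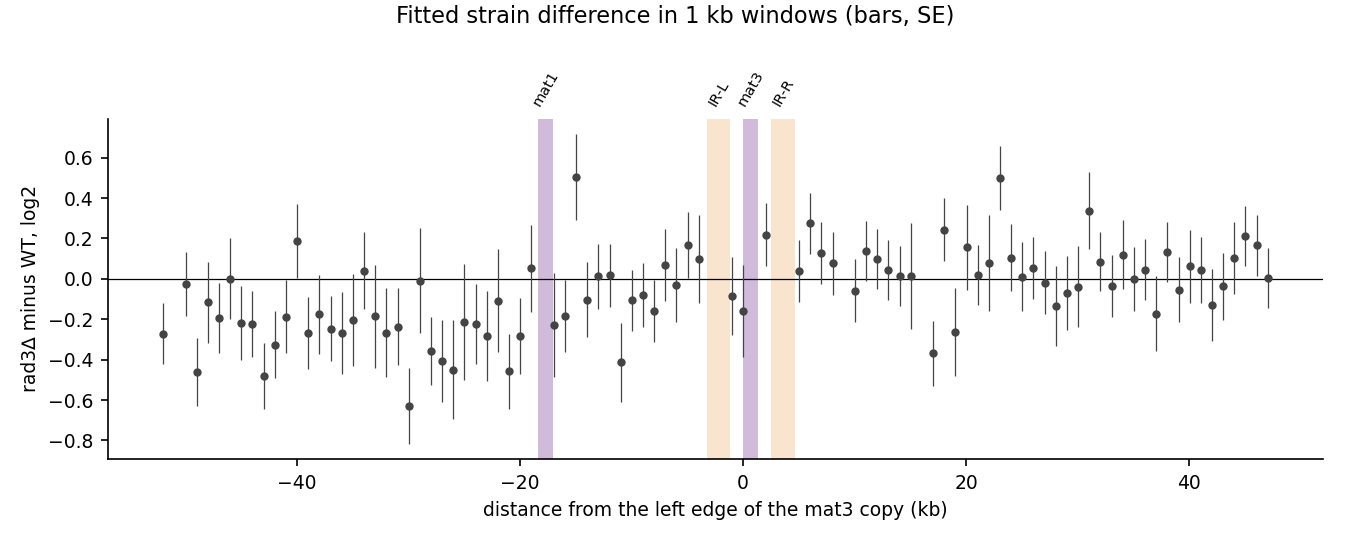
Fitted difference of log2(IP/input), rad3∆ minus WT, in 1 kb windows against the distance in kb from the left edge of the mat3 copy, with bars for SE. Differences left of mat1 lie mostly below 0, with a median of -0.22, and those to its right scatter around 0.

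Input DNA gave no call either. With limma, 0 of 91 windows differed in input between the strains (0.0% of all windows in either direction), with 1 lower and 0 higher in rad3∆ at an unadjusted p under 0.05 (0.233% and 0.0415% of all windows). The mean input of the region was -0.09 ± 0.05 in rad3∆ and -0.05 ± 0.05 in WT (exact permutation p = 0.40, two-sided).

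The region as a whole stood near the array median. The mean over its windows was 0.01, -0.07 and -0.10 on rad3∆ arrays and -0.04, 0.05 and 0.04 on WT arrays. The strains overlapped and differed by -0.07 (exact permutation p = 0.20, two-sided, where 0.10 is the smallest that 3 arrays against 3 allow). Fitted as 1 of 127 segments of 100 kb, the difference was -0.07 ± 0.04 (SE; limma adjusted p = 0.27). The spread of its windows was not unusual: its range of fitted values, 2.49 in rad3∆ (ranked 16th) and 2.32 in WT (ranked 11th), stood among those of the 44 segments of chromosome II with enough windows.

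Other parts of chromosome II were set beside it. The right end, the outer 200 kb, averaged 0.20 ± 0.01 in rad3∆ and -0.31 ± 0.08 in WT. The region minus this end was -0.25 ± 0.06 in rad3∆ and 0.32 ± 0.06 in WT, with no overlap between the strains (exact permutation p = 0.10, the smallest possible, and 0.13 adjusted over 4 comparisons). The left end averaged -0.22 ± 0.09 in rad3∆ and -0.37 ± 0.13 in WT, and the region was higher than it on all 6 arrays (by 0.27 ± 0.14 over the 6 arrays; exact sign-flip p = 0.0312, the smallest possible, and 0.0625 adjusted). Windows within 50 kb of the centromere averaged 0.18 ± 0.02 in rad3∆ and 0.28 ± 0.02 in WT, and the region was lower on all 6 arrays (-0.25 ± 0.06 over the 6 arrays; exact sign-flip p = 0.0312 and 0.0625 adjusted). The rest of the chromosome averaged -0.06 ± 0.04 in rad3∆ and -0.09 ± 0.02 in WT, and the region exceeded it by 0.06 ± 0.06 (exact sign-flip p = 0.0938 and 0.125 adjusted). None of the 4 comparisons of the level passed after adjustment. For the strain difference no comparison could pass, since the smallest p of that test is 0.10, so it decides nothing there. The sign-flip test counts 6 arrays, although same-numbered arrays share a slide, and over 3 slides its smallest p would be 0.25.

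**Figure D5:**
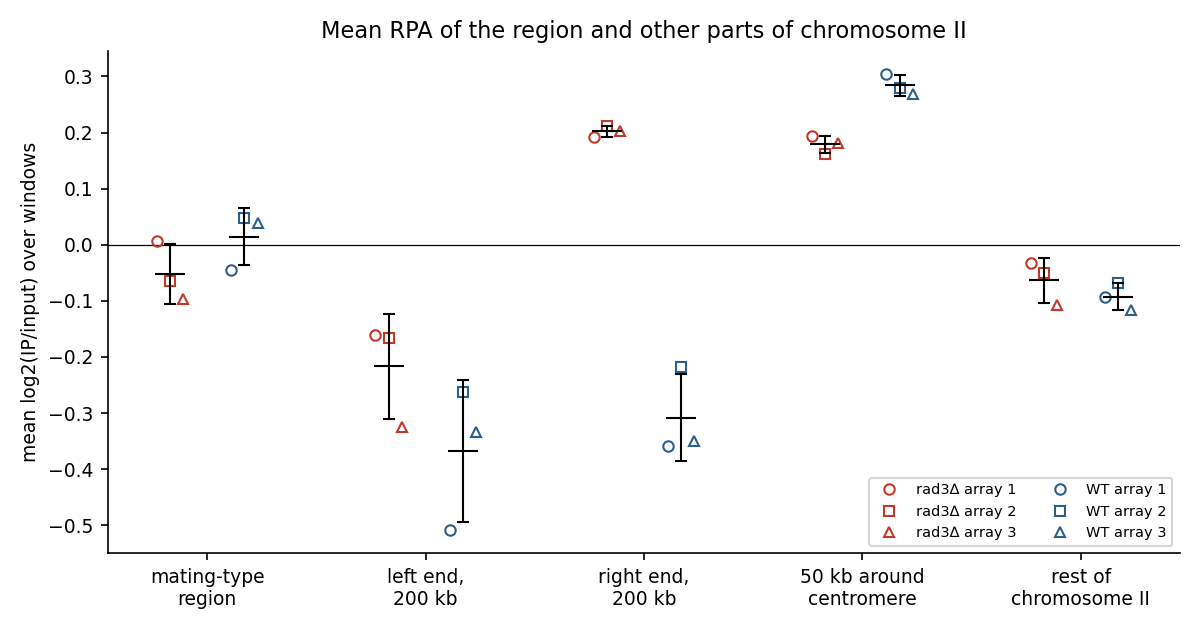
Mean log2(IP/input) over the windows of the mating-type region and of 4 other parts of chromosome II, rad3∆ left of WT; symbols are arrays and bars mean ± SD (n = 3). The region lies near 0 in both strains, while the right end lies at 0.20 in rad3∆ and -0.31 in WT.

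Genes that act on the region from elsewhere were taken from a list of 41 switching, imprinting and silencing factors. Of these, 34 were measured, 6 were not, and swi1, a fork protection factor needed for the imprint, overlaps the deleted rad3 gene and was set aside. In rad3∆, 4 were enriched and 6 depleted (18.2% and 20.6% of all genes). In WT, 6 were enriched and 6 depleted (17.8% and 21.1% of all). None differed between the strains (0 of 34), and the median fitted difference was -0.10, against -0.02 over all genes. By the mean of both strains' fitted values, the highest were rad52, clr6 and atf1. The array means of rad52, for the recombination mediator, were 0.75 ± 0.17 in rad3∆ and 0.89 ± 0.21 in WT. Those of clr6, for a histone deacetylase, were 0.61 ± 0.11 in rad3∆ and 0.82 ± 0.27 in WT. Those of atf1, for the factor named above, were 0.57 ± 0.28 in rad3∆ and 0.61 ± 0.27 in WT. Depleted in both strains were the chromatin remodeller genes fft3 (-1.12 ± 0.36 in rad3∆ and -0.87 ± 0.16 in WT) and mit1 (-0.78 ± 0.28 in rad3∆ and -0.58 ± 0.14 in WT). Also depleted in both, and named after their values were seen, were rtf2, needed for efficient arrest at RTS1 (-0.76 in rad3∆ and -0.87 in WT, fitted), and swi3, the partner of swi1 (-0.61 in rad3∆ and -0.71 in WT, fitted).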

How the data were processed

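IP and its own input shared an array in 2 colours. IP was in the green channel in replicates 1 and 2 of both strains and in red in replicate 3, by the dyes in the labels. The authors deposited Agilent Feature Extraction output, whose intensity columns had background subtracted, a spatial trend removed and the dyes scaled by a linear factor, per the file headers (version 10.7.1.1 for both replicate 1 arrays, 10.7.3.1 otherwise, the latter also per the submitters' processing notes). The deposited log10 ratio column matched red over green on at least 99.73% of probes of each array, within 0.01 log2 units. Of the columns holding samples, 0 were left unused.

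Probe positions follow the build Spombe:NCBI:Feb2002, per the file headers. The files hold no probe sequences, so positions were compared with ASM294v3 (NCBI RefSeq) through base composition; all 5 parts of 20 kb of the region matched within 2 bp. Coordinates count from 1. Repeats were found with blastn 2.17.0.

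From the intensities, log2(IP/input) per probe was centred on the median of 42641 nuclear probes. The 211 nuclear probes with an outlier flag on any array were left out. Windows of 1 kb, genes and 100 kb segments needed at least 2 probes. limma 3.58.1 (R 4.3.3) fitted all 6 arrays with a mean per strain and a dye term. All p-values are two-sided. Where called adjusted, those of limma were adjusted by Benjamini-Hochberg over all features, and those of the exact tests over the 4 comparisons. Genes on chromosome I where probe positions no longer matched the reference were not used. The fit was tested on simulated data. Single values used exact tests over arrays. The coding genes named are the 8 highest, the 8 lowest and the largest strain differences, all mating-type genes, and those under enriched runs, with windows by the same kind of rule; other called windows and non-coding genes were named after their values were seen, and the stretches compared were drawn then too. One gene that the rule names outside the region is not reported here. The region, the lists and the alternatives were chosen with earlier results of these data known. Alternatives were normexp correction, mode centring, probe filters, window sizes, thresholds, no dye term, a replicate block and leaving out arrays. The files have no mean-signal columns, so normexp used median signals.

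Arrays 1, 2 and 3 of both strains shared slides 1, 2 and 3 by number, per the file headers. Their deviations from the strain mean correlated at 0.34, 0.31 and 0.51 for replicates 1, 2 and 3 over all windows, so the numbers pair the arrays. Slide 3 also carries the swapped dyes.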

Additional observations from a re-analysis of the deposited data

How the results depend on the processing

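Of 1313 recomputed values, 868 of single genes or windows kept their direction and their side of an adjusted p of 0.05, and for 45 the p moved above it, whether or not the value had been called. Of the values that answer a comparison, 339 kept direction and side or, for counts, stayed within 1.5 times. With normexp correction, the region minus the left end was 0.255, minus the centromere -0.234 and minus the rest of chromosome II 0.0636, each with an exact sign-flip adjusted p of 0.0417 over 6 arrays, which over 3 slides could not go below 0.25. In 2 kb windows these were 0.33, -0.228 and 0.118 (exact sign-flip adjusted p = 0.0417). Of 50 such windows, 7 were enriched in rad3∆ (18.9% of all windows), and 8 were depleted in rad3∆ (20.6% of all) and 3 in WT (20.2% of all). Centring on the mode gave 18 depleted windows in WT (26.9% of all windows in place of 20.9%), 11 depleted genes in WT, 5 enriched genes in rad3∆, region means of -0.136 in rad3∆ and -0.081 in WT, and turned rpl401 in WT to -0.0343. Probes well above background alone gave 11 depleted windows in rad3∆ and 6 in WT (of 79, where 16.5% and 17.5% of all windows were), and a region mean of 0.00671 in rad3∆. Without both arrays of slide 2, an alternative chosen after seeing the data, WT had 11 depleted genes and 1 window differed, 2117001 to 2118000 (0.805, limma adjusted p = 0.0175), where 2.28% of all windows differed.

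Leaving out 1 array at a time gave 4 to 20 depleted windows in rad3∆ (14.4% to 21.8% of all windows) and 5 to 13 in WT (17.8% to 21.4% of all), and 4 to 15 depleted genes in rad3∆ and 4 to 10 in WT, the lowest counts being those without rad3∆ array 3 and without WT array 1. Without array 3 of a strain, its only array with swapped dyes, the dye term came from the other strain alone. The region minus the right end ran from -0.0366 to 0.101 and was -0.0216, -0.0123 and -0.0366 without WT arrays 1, 2 and 3. The strain difference of the region minus the centromere ran from -0.00157 to 0.0627, the negative value being a reversal. A threshold of 0.3 gave 19 enriched windows in rad3∆ and 14 in WT, 18 depleted windows in WT, 16 enriched genes in rad3∆ and 12 in WT, 20 depleted genes in rad3∆ and 12 in WT, and on the switching list 9 enriched in rad3∆ and 11 in WT with 10 depleted in rad3∆. A threshold of 1 gave 4 enriched windows in rad3∆ and 3 in WT, 2 depleted in rad3∆ and 0 in WT, 2 enriched genes in rad3∆ and 0 in WT, 4 depleted genes in rad3∆ and 0 in WT, and on the list 0 enriched in either strain with 2 depleted in rad3∆ and 1 in WT. For counts at thresholds of 0.3 and 1, and for gene counts under any alternative, no share of the genome is given. They show only how the counts moved, and not whether the region or the list departs from the genome. With the replicate block, rad3∆ had 13 enriched and 15 depleted windows (17.2% and 19.7% of all windows) and WT 8 and 8 (16.9% and 19.4% of all). With it, 0 windows differed, and the strain difference of the region as a segment was -0.0694 (limma adjusted p = 0.301). rga7 in WT then had a limma adjusted p of 0.0386, at -0.296, which is still not depleted by the threshold.

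What limits these values is 3 arrays a strain, the dim IP channel of rad3∆ array 2, and the repeats without probes. Windows of the region also spread least on WT array 2 (SD 0.347, against 0.451 to 0.618 on the other arrays). The cause of each shift above was not tested.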
